A study of Mus musculus with 4 samples.

Results

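This account covers the 10 HoxA and HoxB genes that mark position in the colon: Hoxa7, Hoxa9, Hoxa10, Hoxa11, Hoxa13, Hoxb6, Hoxb7, Hoxb8, Hoxb9 and Hoxb13. They were taken by gene symbol from a table of 16857 genes, and all 10 had a row. Bulk RNA sequencing was run on 4 lines of mouse adenoma colonoids, which are epithelial structures grown in culture, with 1 library per line. The G2 group held lines 157 and 236 (replicates 1 and 2), labelled Apcnull with a homozygous LSL-mTERT allele of Tert, the catalytic subunit of telomerase. The G0 group held lines 75 and 179 (replicates 1 and 2), labelled Apcnull with the same allele heterozygous. All 4 lines therefore carry mutant Apc, named Apcmin in another label, and the LSL-mTERT allele. LSL conventionally denotes a stop cassette that blocks a gene until Cre recombinase removes it, and the labels name no Cre. The series text compares colonoids of high and low chromosomal instability without saying which of G0 and G2 is which. The labels give neither the position in the colon from which a line came nor its mouse of origin, and p-values below cover only the spread among these 4 lines, which need not be separate animals.

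Hox genes encode homeodomain transcription factors that lie in clusters, and their order along the chromosome follows the order of their expression along the body from head to tail. Genes of the same number in different clusters are paralogs, and the high numbers, with group 13 last, belong to the tail end, which includes the hindgut. The gut epithelium keeps part of this positional code in the adult. In mouse and human, Hoxb13 is known as a gene of the distal colon and rectum and of the prostate, and Hoxa13 is needed for the formation of the hindgut and the urogenital tract.

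Library totals lay between 16545429 and 17901744 counts. Levels below are normalized counts, which are counts recovered from the deposited values and divided by the authors' size factors. Tert stood at 0 and 0.977 normalized counts in the G2 lines, against 93.3 and 97.5 in the G0 lines. Of the genes on the Y chromosome, Ddx3y, Kdm5d, Uty and Eif2s3y lay between 296 and 526 in the G2 lines and at 0 in both G0 lines, so the sex of the line and its group cannot be told apart for any gene below. All 10 epithelial markers listed were tested, of which Cdh1 rose and Vil1 fell, and Epcam stood at 6844 and 8669 in G2 and at 5995 and 6994 in G0. In bulk RNA a difference in the share of cells of a type and one in RNA per cell cannot be told apart, and the markers of other cell types are given after the results.

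The 2 genes of paralog group 13 rose in G2 and 3 genes of lower number fell. Hoxb13 was 4.61-fold higher and Hoxa13 was 2.25-fold higher in G2, whereas Hoxb9, Hoxa11 and Hoxa7 were 2.21-fold, 1.99-fold and 1.91-fold lower. The other 5 genes did not pass the test. A gene was called at an adjusted p under 0.05, from limma fitted to the 13981 genes whose mean normalized count was 1 or more, two-sided and with Benjamini-Hochberg adjustment. Of the 10 genes, all of which were tested, 5 were called. Over all genes tested 10.5% were called, 5.93% as higher and 4.56% as lower in G2. The median log2 fold change of the 10 genes was -0.51, beside 0.01 over all genes tested, and the median of its size without sign was 0.966 beside 0.326. Both G2 lines lay on one side of both G0 lines for 8 of the 10 genes, and for 57.8% of all genes tested.

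**Figure D1:**
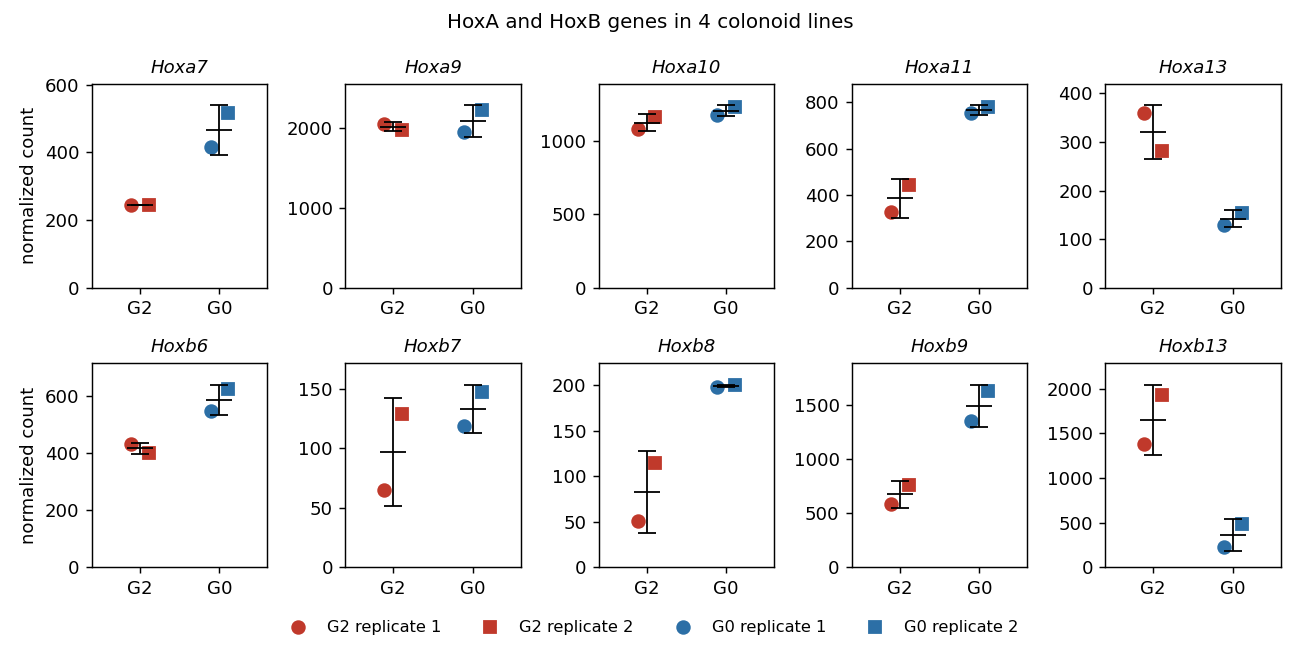
Normalized counts of the 10 genes in each library, with G2 lines in red and G0 lines in blue, circles for replicate 1 and squares for replicate 2, and black bars for the mean and SD over 2 lines. Hoxa13 and Hoxb13 sit higher in both G2 lines, Hoxa7, Hoxa11 and Hoxb9 sit lower, and the groups overlap for Hoxa9 and Hoxb7.

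Each call rested on having 2 lines in each group. With any 1 of the 4 libraries left out these calls were lost, as were nearly all others among the genes tested, and all 5 called genes kept their direction. Without limma's intensity trend 0 of the 10 were called, beside 623 of all 13981 genes tested. Of the 10, 7 then had an unadjusted p under 0.05, beside 3230 of all genes tested.

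Hoxb13, on chromosome 11 from 96194316 to 96197447 on the plus strand, had 1376 and 1928 normalized counts in the G2 lines, against 230 and 487 in the G0 lines. Both G2 lines lay far above both G0 lines, and the G0 lines themselves stood apart, with line 179 above line 75. The difference was 2.28 on the log2 scale (SE 0.35, adjusted p = 0.00950). The ratio of the means, 4.61 with all lines, was 7.19 without G0 replicate 2 and 3.39 without G0 replicate 1. It was 5.38 without G2 replicate 1 and 3.84 without G2 replicate 2.

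Hoxb9, a gene known for its part in patterning the thoracic skeleton, is the next HoxB gene along the chromosome, from 96271457 to 96276595. Its level was 582 and 762 normalized counts in the G2 lines, against 1350 and 1625 in the G0 lines. Both G2 lines were low, and the groups did not overlap (log2 fold change -1.15, SE 0.18, adjusted p = 0.0110). Hoxb13 and Hoxb9 thus moved in opposite directions within one cluster. Line by line, there were 2.36 and 2.53 counts of Hoxb13 per count of Hoxb9 in G2, against 0.170 and 0.299 in G0, a ratio that does not depend on how libraries were scaled.

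Hoxb8, known in mouse for its roles in blood cell progenitors and microglia, from 96281905 to 96285315, stood at 50.4 and 114 normalized counts in G2 and at 198 and 200 in G0. The G2 lines differed widely from each other while the G0 lines were nearly equal, and the gene did not pass (log2 fold change -1.38, 95% interval -2.30 to -0.46, adjusted p = 0.0703). The mean in G2 was 2.42-fold lower, or 3.95-fold lower without G2 replicate 2 and 1.74-fold lower without G2 replicate 1. Hoxb7, a gene expressed in the ureteric bud of the kidney, from 96286623 to 96290162, had 64.5 and 129 normalized counts in G2 and 119 and 147 in G0, with overlapping groups (log2 fold change -0.53, interval -1.40 to 0.34, adjusted p = 0.395). Hoxb6, a gene of the lateral plate mesoderm in the embryo, from 96292476 to 96301569, had 430 and 401 in G2 against 547 and 622 in G0. Its groups did not overlap, and it missed the threshold (log2 fold change -0.49, interval -0.88 to -0.10, adjusted p = 0.108). The values of these 3 genes are therefore lower on average in G2, without a call for any of them.

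On the HoxA cluster, Hoxa13, on chromosome 6 from 52257694 to 52260880 on the minus strand, had 359 and 281 normalized counts in the G2 lines, against 130 and 154 in the G0 lines. Both G2 lines were high, and the means differed by 1.16 on the log2 scale (SE 0.23, adjusted p = 0.0233). Hoxa11, a gene of limb, kidney and reproductive tract development, lies next to it, from 52242106 to 52245810. It had 327 and 444 normalized counts in G2, against 752 and 780 in G0, so both G2 lines were low (log2 fold change -1.01, SE 0.19, adjusted p = 0.0208). The pair gave 1.10 and 0.632 counts of Hoxa13 per count of Hoxa11 in G2, against 0.172 and 0.198 in G0. Exons of the antisense gene Hoxa11os overlap those of Hoxa11, and the strand setting of the counting is not given in the sources used here, so reads of the pair may be mixed.

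Hoxa10, which patterns the uterus and the lumbar spine, and Hoxa9, best known for its role in blood stem cells and leukaemia, lie next and had the highest mean levels per kb of exon among the HoxA genes in both groups. Hoxa10, from 52231197 to 52240854, had 1082 and 1164 normalized counts in G2 and 1180 and 1231 in G0 (log2 fold change -0.10, interval -0.42 to 0.21, adjusted p = 0.658). Hoxa9, from 52223100 to 52231089, had 2057 and 1984 in G2 and 1947 and 2228 in G0, with overlapping groups (log2 fold change -0.04, interval -0.36 to 0.28, adjusted p = 0.861). The intervals of both genes leave out a change as large as that of Hoxa11 on one side or of Hoxa13 on the other. Hoxa7, which patterns the trunk and is a known target of the methyltransferase MLL in leukaemia, from 52214491 to 52221854, fell to 243 and 243 normalized counts in the G2 lines, against 414 and 517 in the G0 lines. The G2 lines were nearly identical and both below the G0 lines (log2 fold change -0.93, SE 0.19, adjusted p = 0.0271). The antisense gene Hoxaas3 overlaps exons of Hoxa7, with the same limit as for Hoxa11.

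**Figure D2:**
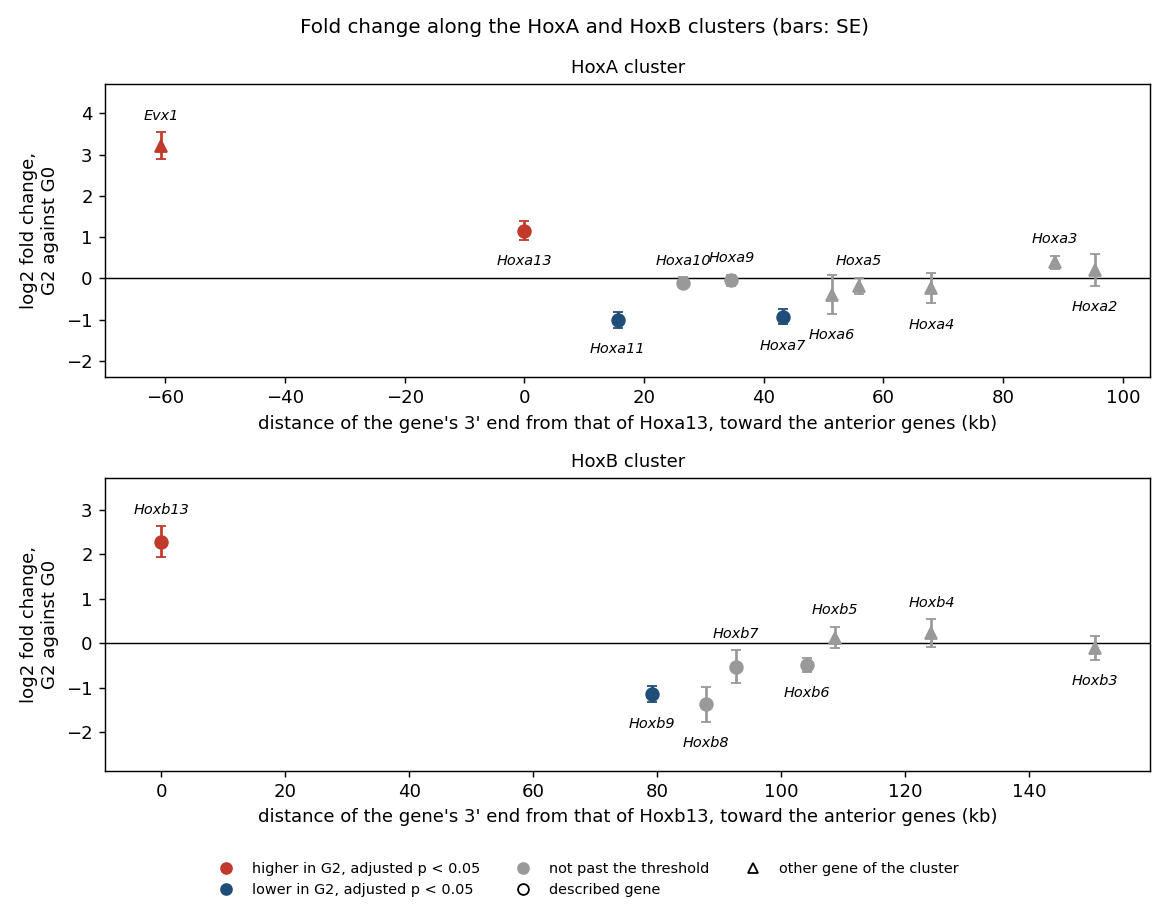
Log2 fold change of G2 against G0 (vertical axis, bars for the SE) for genes of the HoxA cluster from group 2 on, with Evx1, and for the tested genes of the HoxB cluster, by the distance of its 3′ end from that of the group 13 gene in kb (horizontal axis). Circles are the 10 genes described and triangles are other genes of the clusters. The group 13 genes lie above 0 with log2 fold changes of 1.16 and 2.28, and their nearest tested Hox neighbours, Hoxa11 and Hoxb9, lie at -1.01 and -1.15.

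The promoters of the 3 called HoxA genes differ in CpG, the dinucleotide at which vertebrate DNA is methylated and which is dense in the promoters of many developmental genes. The sequences below are from RefSeq on GRCm38.p6, the assembly also called mm10, from 250 bases before the annotated start to 50 bases after it, with each CpG in capitals. The window of Hoxa7 lies inside the GENCODE gene, whose end is further upstream. Hoxa13 is at chr6:52260831-52261130, Hoxa11 at chr6:52245761-52246060 and Hoxa7 at chr6:52218524-52218823, all on the minus strand and printed 5′ to 3′.
Hoxa13: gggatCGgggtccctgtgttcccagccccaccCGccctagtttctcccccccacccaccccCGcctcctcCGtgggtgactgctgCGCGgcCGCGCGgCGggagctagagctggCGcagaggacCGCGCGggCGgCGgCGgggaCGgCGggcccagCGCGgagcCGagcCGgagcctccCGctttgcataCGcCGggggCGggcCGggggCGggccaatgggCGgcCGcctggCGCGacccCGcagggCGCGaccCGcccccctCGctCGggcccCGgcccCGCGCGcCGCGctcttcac
Hoxa11: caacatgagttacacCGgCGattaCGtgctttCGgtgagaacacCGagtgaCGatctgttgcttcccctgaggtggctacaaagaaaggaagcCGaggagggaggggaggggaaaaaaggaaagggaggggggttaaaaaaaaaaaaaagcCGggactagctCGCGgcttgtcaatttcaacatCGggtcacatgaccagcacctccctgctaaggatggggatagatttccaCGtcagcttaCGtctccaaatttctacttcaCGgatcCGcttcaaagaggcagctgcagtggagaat
Hoxa7: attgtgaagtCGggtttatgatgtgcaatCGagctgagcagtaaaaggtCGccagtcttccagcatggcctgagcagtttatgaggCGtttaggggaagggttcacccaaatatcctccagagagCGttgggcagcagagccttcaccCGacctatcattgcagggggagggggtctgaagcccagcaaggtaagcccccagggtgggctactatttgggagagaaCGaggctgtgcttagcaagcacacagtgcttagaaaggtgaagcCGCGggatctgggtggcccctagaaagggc
The Hoxa13 window held 45 CpG and had 81.0% G and C, the Hoxa11 window 15 CpG and 51.0%, and the Hoxa7 window 9 CpG and 55.7%. The median over 32851 promoters of the same table was 7 CpG and 52.7%, and 98.1% of promoters had fewer CpG than that of Hoxa13. Methylation was not measured, so these counts describe the sequence alone. Promoters of 6 of the 10 genes were found, with none for Hoxb6, Hoxb7, Hoxb9 and Hoxb13. Among the genes not called, the Hoxa9 window held 4 CpG, the 2 windows of Hoxa10 held 12 and 21, and the Hoxb8 window held 13. The count therefore depends on the start used, and the windows of genes not called lay on both sides of those of Hoxa11 and Hoxa7. Both strands were searched for AATAAA, a core that caudal and posterior Hox factors can bind, which 19.6% of all promoters hold, and for TCGTAAA, the core of a site bound by group 13 factors, which 0.597% hold. Neither was in the 3 windows above. Hoxb8 held 1 of each and 1 of the 2 windows of Hoxa10 held AATAAA.

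Levels of different genes can be compared per length, here as normalized counts per kb of exon in the GENCODE M21 annotation. In G2 the highest of the 10 genes was Hoxb13, at 749 ± 177 per kb (SD, n = 2), followed by Hoxa9 at 362 ± 9.26, Hoxa10 at 343 ± 17.7, Hoxb9 at 261 ± 49.6, Hoxb6 at 211 ± 10.4, Hoxa11 at 168 ± 36.2, Hoxa13 at 129 ± 22.5, Hoxa7 at 84.6 ± 0.0837, Hoxb7 at 62.7 ± 29.5 and Hoxb8 at 31.3 ± 17.2. In G0 the highest was Hoxb9, at 578 ± 75.6 per kb, followed by Hoxa9 at 374 ± 35.6, Hoxa10 at 369 ± 11.01, Hoxa11 at 335 ± 8.66, Hoxb6 at 298 ± 26.9, Hoxb13 at 162 ± 82.3, Hoxa7 at 162 ± 25.2, Hoxb7 at 86.2 ± 13.04, Hoxb8 at 75.6 ± 0.475 and Hoxa13 at 57.4 ± 7.09. The gene that ranked first was thus Hoxb13 in G2 and Hoxb9 in G0, and Hoxa13, which ranked 7 in G2, was last in G0. Neighbours in these orders whose 2 lines overlapped were Hoxa9 and Hoxa10 in both groups, Hoxa11 and Hoxa13 and also Hoxb7 and Hoxb8 in G2, and Hoxb13 and Hoxa7 in G0. The annotation used by the authors for counting is not given in the sources used here, so the lengths, and with them the order, may differ from theirs.

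**Figure D3:**
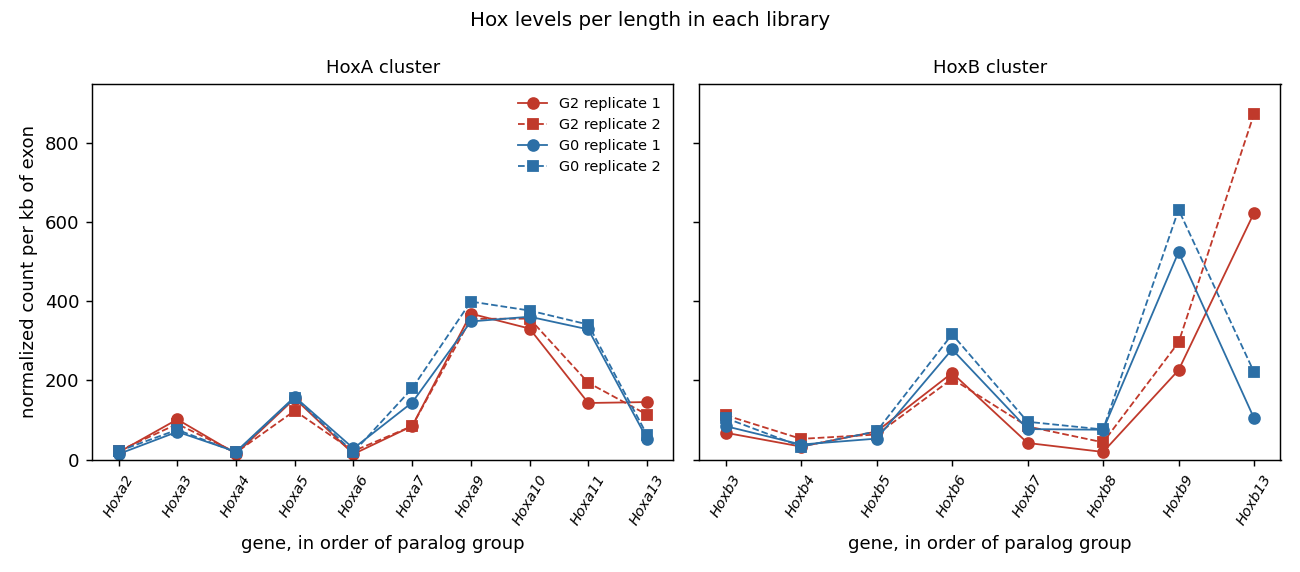
Normalized counts per kb of exon (vertical axis) of HoxA genes from group 2 on and of the tested HoxB genes, in order of paralog group (horizontal axis), with 1 line per library, red for G2 and blue for G0. On the right the G2 libraries peak at Hoxb13, at 749 per kb on average, and the G0 libraries at Hoxb9, at 578 per kb.

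The summed counts of the 10 genes overlapped between the groups, while the share of Hoxb13 in its cluster did not. The 10 genes together had 6570 and 7450 normalized counts in the G2 lines, against 6867 and 7991 in the G0 lines. The 5 HoxB genes summed to 2502 and 3334 in G2 and to 2444 and 3081 in G0, with overlapping groups. The 5 HoxA genes summed to 4068 and 4116 in G2, just below 4423 and 4910 in G0.

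Within the HoxB cluster, Hoxb13 made up 47.9% and 50.6% of the summed level per kb in the G2 lines, against 8.44% and 14.2% in the G0 lines. Hoxb9 made up 17.4% and 17.1% in G2, against 42.5% and 40.8% in G0, and Hoxb6, Hoxb7 and Hoxb8 together 21.5% and 19.2% in G2, against 34.9% and 31.5% in G0. The share of the anterior genes, groups 1 to 5, was 13.2% and 13.2% in G2 and 14.2% and 13.5% in G0. In the HoxA cluster, Hoxa9 and Hoxa10 together held 49.8% and 50.4% of the summed level per kb in G2 and 46.0% and 46.4% in G0, and Hoxa11 and Hoxa13 together 20.5% and 21.8% in G2 and 24.7% and 24.1% in G0. This last share pools Hoxa11, at 168 per kb in G2 against 335 in G0, with Hoxa13, at 129 against 57.4, which moved in opposite directions. Hoxa6 and Hoxa7 together held 7.001% and 7.49% in G2, against 11.2% and 11.9% in G0, and the genes of groups 1 to 5 held 22.7% and 20.4% in G2, against 18.1% and 17.6% in G0. These shares follow from the levels above and were not tested.

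**Figure D4:**
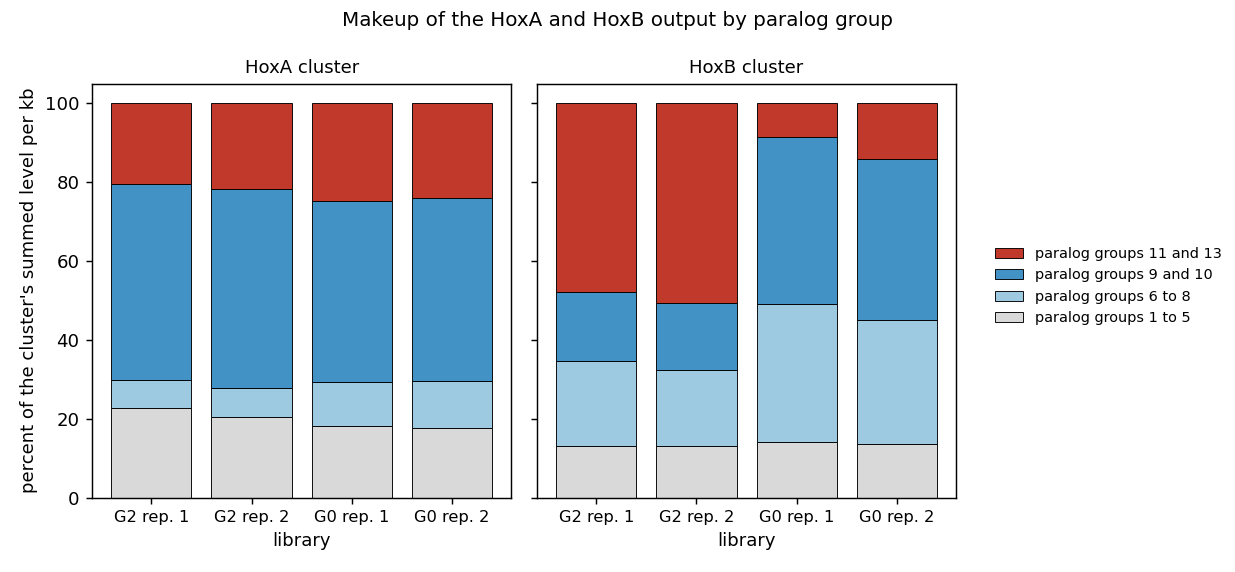
Percent of each cluster's summed normalized counts per kb (vertical axis) held by groups of paralogs, in the 2 G2 and 2 G0 libraries (horizontal axis). In HoxB the red part, which is Hoxb13 alone, is 47.9% and 50.6% in G2 and 8.44% and 14.2% in G0. In HoxA the red part pools Hoxa11, which fell, and Hoxa13, which rose, and is between 20.5% and 24.7% in all libraries.

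Within a group, the normalized counts of most of these genes differed between the lines in one direction. In G0, line 75 was below line 179 for 10 of the 10 genes, beside 51.2% of all genes tested. In G2, line 157 was below line 236 for 7 of the 10, beside 48.3% of all genes tested, and above it for Hoxa9, Hoxa13 and Hoxb6. These numbers depend on the scaling. Before normalization Hoxb8 had 202 counts in line 75 and 197 in line 179, Hoxa10 1202 and 1212, and Hoxa11 766 and 768. The size factor of line 75 was the larger (1.018 against 0.984), whereas its total count was the smaller (17152994 against 17901744). In G2, Hoxa7 was nearly equal in the 2 lines, at 243 and 243 normalized counts.

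Paralogs of one number can be set side by side. In group 9, Hoxa9 had a log2 fold change of -0.04 and Hoxb9 one of -1.15. There were 0.283 and 0.384 counts of Hoxb9 per count of Hoxa9 in the G2 lines, against 0.693 and 0.730 in the G0 lines. In group 7, Hoxa7 fell and Hoxb7 did not pass, and the difference between them was not tested. In group 13, Hoxa13 and Hoxb13 both rose, and Hoxb13 stood at 3.83 and 6.87 counts per count of Hoxa13 in G2, against 1.77 and 3.15 in G0. The HoxD cluster, of which 8 genes had a row, held 0 counts in both G0 lines, and in G2 its paralogs of these groups, Hoxd13 and Hoxd9, stood at 3229 and 2914 and at 138 and 39.1 normalized counts. Of the HoxC cluster 2 genes had a row, Hoxc9 and Hoxc13, with 1 count in the 4 libraries together.

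The anterior genes described here had no call. Of Hoxa2 to Hoxa6, 0 of 5 passed the limma test (1 at an unadjusted p under 0.05, Hoxa3), with log2 fold changes between -0.39 and 0.39. Hoxa3 had 610 and 541 normalized counts in G2 and 422 and 453 in G0 (adjusted p = 0.177). Of Hoxb2 to Hoxb5, 3 genes were tested, Hoxb3, Hoxb4 and Hoxb5, and 0 passed (0 at an unadjusted p under 0.05), with log2 fold changes between -0.11 and 0.22. Hoxb5, the next gene after Hoxb6, had 198 and 176 normalized counts in G2 and 147 and 198 in G0. Hoxb1 and the listed noncoding transcripts of the clusters, among them Hottip and Mir196a-1, had no row under the symbols searched, so no value can be given for them.

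Other genes within 200 kb of the clusters were few, since 9 had a row and 8 were tested. Of these 2 rose and 2 fell, beside 5.93% and 4.56% of all genes tested. Evx1, an even-skipped type homeobox gene that lies beyond Hoxa13 on chromosome 6 from 52313498 to 52318378, rose 9.45-fold, with 381 and 282 normalized counts in the G2 lines against 27.5 and 42.7 in the G0 lines (adjusted p = 0.00208). It therefore lay on the same side as its neighbour Hoxa13. Skap2, an adaptor protein gene at the other end of the HoxA cluster, rose 1.69-fold, with 1546 and 1887 normalized counts in G2 against 1016 and 1015 in G0 (adjusted p = 0.0246). On the far side of Hoxb13, Atp5g1, which encodes a subunit of the mitochondrial ATP synthase, fell 1.70-fold, with 1962 and 2079 in G2 against 3308 and 3580 in G0 (adjusted p = 0.0133). Igf2bp1, a fetal RNA-binding protein gene, stood at 0 in both G2 lines and at 16.7 and 31.5 normalized counts in the G0 lines (adjusted p = 0.00715). Ttll6, the nearest of these genes to Hoxb13, had 6.05 and 4.89 normalized counts in G2 and 0 and 2.03 in G0 (adjusted p = 0.185).

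Hox proteins bind DNA together with TALE homeodomain cofactors of the Pbx, Meis and Pknox families. Of 9 such genes tested, 2 rose and 0 fell, with a median log2 fold change of 0.01. Over all genes tested 5.93% rose and 4.56% fell, shares that also stand beside the Polycomb, trithorax and axial lists below. Meis1 had 59.5 and 44.96 normalized counts in the G2 lines, against 1.96 and 2.03 in the G0 lines (adjusted p = 0.00359). Meis2 had 66.6 and 67.4 in G2, against 2.95 and 6.09 in G0 (adjusted p = 0.00520). Both genes were near the limit of detection in G0 and still low in G2.

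Polycomb complexes keep Hox genes silent and trithorax complexes keep them active. Over all genes, 3743 of the 13981 tested by limma were at an unadjusted p under 0.05. Of 24 Polycomb genes, 0 rose and 1 fell (8 at an unadjusted p under 0.05), with a median log2 fold change of 0.10. The 1 was Epop, an accessory gene of Polycomb repressive complex PRC2, at 870 and 908 normalized counts in G2 against 1241 and 1537 in G0 (adjusted p = 0.0465). This call was lost, leaving 0 of 24, with no filter on low values, with total-count or upper-quartile scaling and without the intensity trend. The core PRC2 genes Ezh2, Eed and Suz12 had adjusted p of 0.742, 0.439 and 0.916. Of 11 trithorax and H3K27 demethylase genes 0 passed the limma test (5 at an unadjusted p under 0.05), with a median of 0.04.

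Caudal factors, retinoic acid signalling and Gdf11 set Hox expression along the axis in the embryo. Of 8 such genes tested, 0 rose and 1 fell. It was Cdx2, the caudal factor that specifies the intestinal epithelium, which stood at 270 and 187 normalized counts in the G2 lines, against 2395 and 3199 in the G0 lines (log2 fold change -3.62, SE 0.23, adjusted p = 0.000430). Both G2 lines were low. Cyp26b1, which encodes an enzyme that degrades retinoic acid, had 6.05 and 4.89 normalized counts in G2 against 18.7 and 54.9 in G0 and missed the threshold (log2 fold change -2.36, SE 0.60, adjusted p = 0.0530). It passed with a pseudocount of 5 and with a minimum mean of 5, which made 2 calls in the list. Cdx1 stood at 8.07 and 1.95 in G2 and at 2.95 and 7.11 in G0, and the retinoic acid receptor genes Rara, Rarb and Rarg did not pass.

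**Figure D5:**
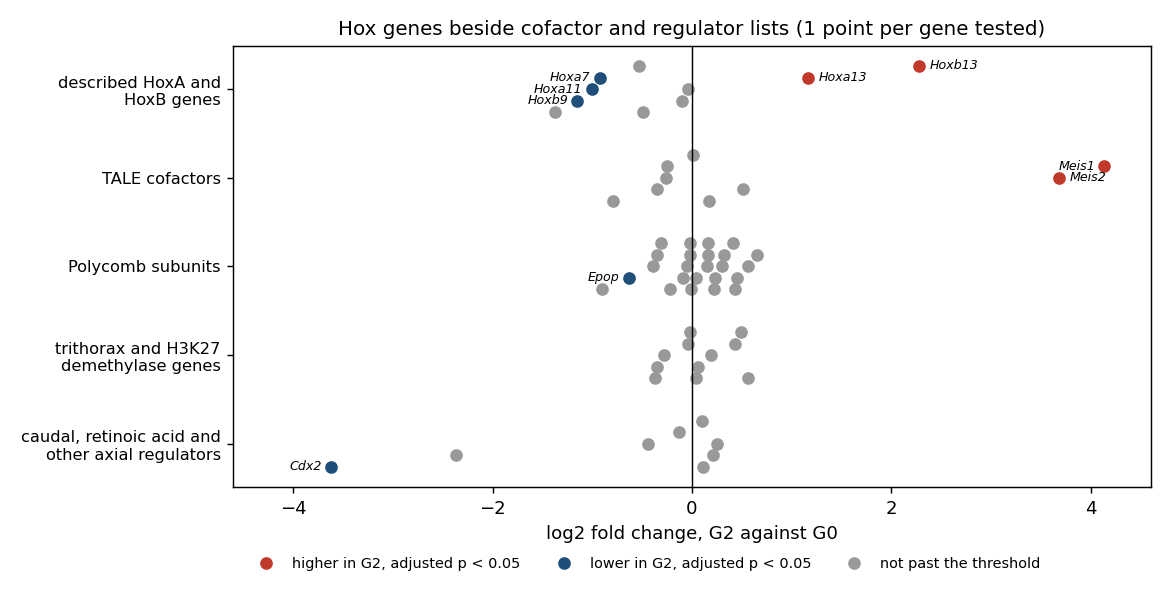
Log2 fold change of G2 against G0 (horizontal axis) for each tested gene of 5 lists (vertical axis, 1 point per gene, spread vertically for legibility), with called genes coloured and named. The 10 HoxA and HoxB genes span -1.38 to 2.28, the Polycomb genes -0.90 to 0.65, and Cdx2 lies at -3.62.

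Of 5 tested genes with known regional expression in the large intestine, 3 rose and 0 fell, beside 5.93% and 4.56% of all genes tested. The median log2 fold change, 1.51, was that of Aqp8, a low gene that limma did not call (adjusted p = 0.501). It had 15.1 and 0 normalized counts in G2 and 0.982 and 0 in G0. Of the 3 that rose, the claudin gene Cldn8 had 142 and 81.1 normalized counts in G2 against 18.7 and 17.3 in G0 (adjusted p = 0.00961). Car1, a carbonic anhydrase of colonocytes, had 4019 and 508 in G2 against 38.3 and 107 in G0 (adjusted p = 0.0264), and the ratio of its means, 31.2, was 7.01 without G2 replicate 1, 55.5 without G2 replicate 2 and 59.1 without G0 replicate 2. With no filter on low values or without the intensity trend Car1 was not called. Of 5 tested genes of small intestine and foregut, 3 rose and 0 fell, beside 5.93% and 4.56% of all genes tested, with a median of 2.85. Gata5, a transcription factor gene, had 779 and 1753 normalized counts in G2 against 0.982 and 9.14 in G0, Sox2, a foregut factor, had 48.4 and 21.5 against 0 and 0, and Slc10a2, the bile acid transporter of the ileum, had 31.3 and 11.7 against 2.95 and 1.016. The call of Slc10a2 (adjusted p = 0.0460) was lost on the deposited log2 values, with no filter, with total-count or upper-quartile scaling and without the intensity trend. Genes of both regional lists were thus called as higher.

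Mesenchyme and other cell types also express Hox genes, so their markers are given beside them. Over all genes tested 5.93% rose and 4.56% fell, shares that stand beside these marker lists and the epithelial markers above. Of the fibroblast markers 10 of 11 had a row and summed to 4018 and 4662 normalized counts in G2 and to 5894 and 3277 in G0, nearly all from Fn1. The defining markers Dcn and Pdgfra were at 0 in all 4 libraries, and Col1a1 was at 1.01 and 1.95 in G2 and at 4.91 and 4.06 in G0. Col3a1 rose to 7.06 and 6.84 in G2, against 0 and 0 in G0 (limma adjusted p = 0.0404). This call rested on 7 counts in each G2 line and was lost with a minimum mean of 5. Smooth muscle markers, 5 of 6 with a row, summed to 199 and 456 in G2 against 12.8 and 11.2 in G0. Of them Acta2 rose, to 185 and 434 in G2 against 7.86 and 4.06 in G0, while Myh11 was at 5.04 and 0.977 in G2 and at 0 in G0. Endothelial markers, 4 of 5 with a row, summed to 99.8 and 113 in G2 against 21.6 and 27.4 in G0, with Cdh5 at 0 in both G2 lines and Tek and Vwf called as higher. The call of Vwf (adjusted p = 0.0496) was lost with no filter, with upper-quartile scaling and without the intensity trend.

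Immune markers, 6 of 8 with a row, summed to 1177 and 1923 in G2 and to 1131 and 2112 in G0, mostly from Cd68, with Ptprc and Itgam at 0 in all libraries and Csf1r called as higher (adjusted p = 0.0431), a call lost with a pseudocount of 5, with a minimum mean of 5 and without the intensity trend. Enteric neuron and glia markers, 5 of 7 with a row, summed to 143 and 145 in G2 and to 158 and 111 in G0, with S100b at 0 in all. The 5 urothelium markers summed to 46.4 and 16.6 in G2 and to 23.6 and 23.4 in G0. Squamous epithelium markers, 7 of 8 with a row, summed to 20438 and 6272 in G2 and to 24641 and 33965 in G0. Of these 7, all tested, Krt14, Krt13, Dsg3 and Lor rose and Krt4 fell. Trp63, at 12.1 and 0 in G2 and 0 and 0 in G0, was low and not called. Krt5, at 9.08 and 0.977 in G2 and 4.91 and 5.08 in G0, was also low and not called. Krt13 had 7043 and 2034 in G2 against 205 and 310 in G0, and Krt4 had 7674 and 2332 against 24042 and 33254. The part of these cell types in the Hox differences was not tested.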

How the data were processed

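RNA from 4 mouse adenoma colonoid lines, 2 labelled G2 and 2 labelled G0, was sequenced as 1 library per line. The authors deposited one table of log2 values for 16857 genes, whose lowest value in every library was 6.508, as a variance-stabilizing transformation gives to a count of 0. Inverting such a transformation needs only that floor. With 1 size factor per library, 100% of the values lay within 0.001 of a whole number and were used as counts, normalized by those factors. The submitters' processing notes name HISAT2 2.1.0, StringTie 2.1.1, DESeq2 1.32.0 and build mm10. StringTie gives estimates, so the whole numbers need not be reads counted one by one, and no count model was run. limma 3.58.1 in R 4.3.3, with an intensity trend, was fitted to log2(normalized count + 1), a scale that understates changes of low genes, for genes averaging 1 or more, with group as the only term. Positions and exon lengths are from GENCODE M21.

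TMM factors were replaced by upper-quartile scaling. The sources used here do not name the annotation or the strand setting of the counting. The scripts were tested on simulated data. The 10 genes, the gene lists and the tests were chosen with earlier results of these data known, so no list is independent evidence. Named were the 10 genes, Tert, up to 4 called genes of each list with the smallest p, Hox genes by level, and genes within 200 kb of the clusters. Others, such as Hoxa3, Cdx1, Cyp26b1, Epcam, the core PRC2 genes and markers given by level, were chosen after their values were seen. Some listed genes are not reported here.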

Additional observations from a re-analysis of the deposited data

How the results depend on the processing

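Leaving out 1 library at a time left 0 to 2 of all genes called in place of 1467, and 0 of the 10 Hox genes in place of 5. Between 2431 and 3234 genes then had an unadjusted p under 0.05. Dropping the intensity trend called 623 genes and 0 of the 10, with adjusted p of 0.0783 for Hoxa13, 0.0869 for Hoxb9, 0.0904 for Hoxa7, 0.0907 for Hoxb13 and 0.103 for Hoxa11. With the replicate number as a block 3503 genes and 7 of the 10 were called, Hoxb6 and Hoxb8 in addition. The block rests on numbers that pair nothing in the labels, and the deviations of same-numbered libraries correlated at 0.109 across genes. Using the deposited log2 values, a pseudocount of 5, no filter, a minimum mean of 5, scaling to total counts or upper-quartile scaling called 1065 to 1614 genes and 5 of the 10 Hox genes in each case. The log2 fold change of Hoxa9, which was not called, changed sign with total-count scaling (0.02) and without G0 replicate 2 (0.05). Hoxb2, with at most 2.03 normalized counts in any line, fell below the minimum mean of 1 and was not tested. The calls of Epop, Vwf, Car1, Slc10a2, Csf1r and Col3a1 were also lost under some of these settings, as given beside them. Those of Atp5g1, Skap2, Cdh1, Vil1, Krt13, Krt4 and Lor were lost without the intensity trend.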
